A study of Mus musculus with 9 samples.

Results

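The response of conventional dendritic cells of type 2 (cDC2) to interferon-gamma (IFN-gamma) followed by bacterial lipopolysaccharide (LPS) was described in mice that lack the transcription factors BATF and BATF3. The members are the 4 arrays whose labels give the genotype Batf-/- Batf3-/- (double knockout, DKO) and the cell type cDC2: 2 from resting and 2 from activated cells, of 9 arrays in all. Replicate numbers in the labels were used to pair an activated with a resting array for pair values and for a second fit. The main fit, which gives the standard errors, p-values and calls unless the block is named, was unpaired. All mice were of strain 129SvEv/Tac, and the RNA of cDC2 purified from spleen by sorting was read on Affymetrix gene arrays. For activation, a first hour (1 h) with 100 ng/ml IFN-gamma was followed by 3 h with 1 µg/ml LPS from E. coli, in either genotype. The DKO response was set beside that of wild-type (WT) cDC2, which rests on another 4 arrays, 2 resting and 2 activated, so the responses share no array. A lone array of resting WT cDC1 served for the check of subset markers. It was also 1 of the 5 groups of the brightness filter and the fit. Whether replicate arrays stand for different animals is not stated, and the p-values therefore reflect a spread between samples which may be technical. Nor is it stated if resting cells spent the same time in culture, so stimulus and culture cannot be told apart.

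IFN-gamma signals through JAK kinases to GAS elements in its target genes, and induces IRF factors that bind ISRE elements together with other proteins. LPS acts through Toll-like receptor 4, the adaptors MyD88 and TRIF, NF-kappaB and AP-1, and in dendritic cells it switches on cytokines, chemokines and co-stimulatory ligands. BATF and BATF3 are small AP-1 factors that pair with JUN proteins and bind composite elements together with IRF4 or IRF8. BATF3 is best known for its need in the development of cDC1, and cDC2 are known mainly for presenting antigen to CD4 T cells.

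Intensities are given as log2 values, so a difference of 1 is a doubling, and each change is the mean of 2 arrays minus that of 2 others, with its standard error (SE) from limma. Array medians lay between 53.4 and 55.6 on the linear scale, and replicate arrays of a cDC2 group correlated at r = 0.969 to 0.980 over genes. Batf read 5.40 and 5.44 in resting and 5.44 and 5.31 in activated DKO cells (replicates 1 and 2), against 6.74 to 9.07 in the 4 WT cDC2 arrays. Batf3 read 6.43, 7.17, 6.65 and 6.90 in the DKO arrays and 7.58 to 9.92 in WT cDC2, so the groups of either genotype did not overlap for these genes. The sources used here do not give the position of the probes against the deletion. The cDC2 marker Sirpa, an inhibitory surface receptor, read 9.05 to 10.12 on the DKO arrays and 7.05 on the cDC1 array. The cDC1 markers Xcr1 and Clec9a read 4.42 to 4.67 and 3.64 to 3.88 on the DKO arrays and 9.33 and 8.67 on the cDC1 array. Of the cDC2 list, Itgam, Clec4a4, Clec10a and Cd209a did not exceed the brightness threshold of 5.94 in any group.

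In DKO cDC2, 624 of 10728 genes tested rose on activation (5.82% of those tested) and 848 fell (7.90%), by limma at an adjusted p below 0.05. Increases were the larger changes: 367 of the 624 reached 2-fold, 108 reached 4-fold and 36 reached 8-fold. Of the 848 decreases, 194 reached 2-fold, 15 reached 4-fold and 2 reached 8-fold. The median change was 1.17 among genes that rose and -0.74 among genes that fell, and -0.09 over all genes tested. All 1472 genes moved the same way in the pair of replicate 1 and the pair of replicate 2. They were called from these same arrays, so that agreement is no independent check. The changes of the pairs correlated at r = 0.897 over genes, which are not independent replicates. With the replicate number as a block the counts were 1393 higher (13.0%) and 2687 lower (25.0%), and these held all 624 and all 848. Resting and activated arrays did not overlap in 2257 genes that were higher (21.0%) and 4213 that were lower (39.3%). Without DKO resting replicate 1, DKO resting replicate 2, DKO activated replicate 1 or DKO activated replicate 2, the counts were 271 higher and 265 lower, 132 and 85, 160 and 115, and 289 and 328. These fits, given below in that order, assume that the lone array left in a group varies like the other groups. Past the threshold in all 4 of these fits were 112 of the genes that rose and 62 of those that fell. For 87 genes that rose the resting mean, and for 115 that fell the activated mean, was not above the brightness threshold, so that their change may be understated. RNA per cell was not measured, and fewer cells of a type cannot be told apart from less RNA per cell.

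**Figure D1:**
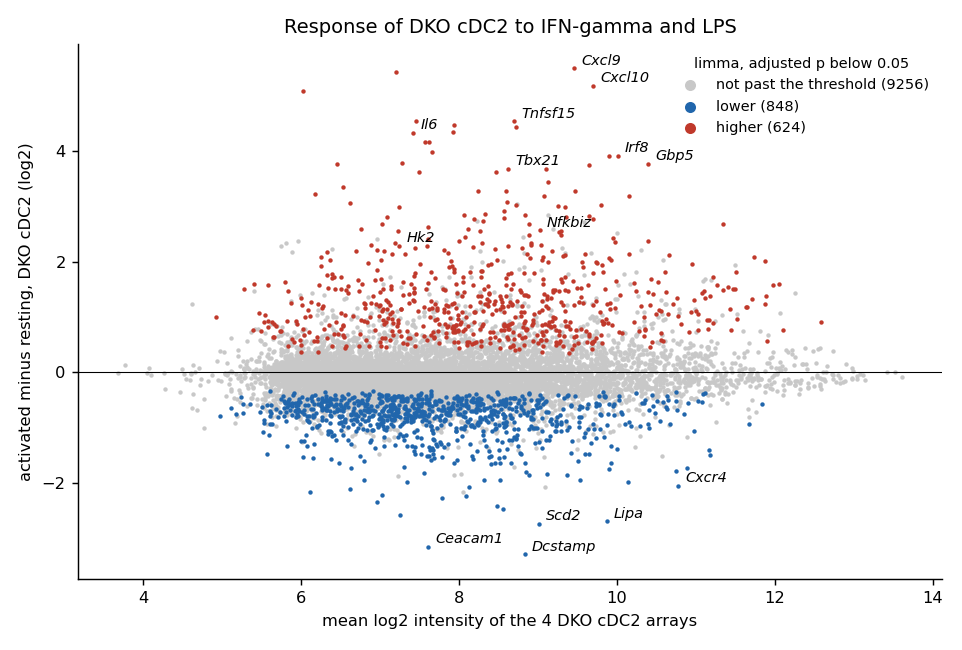
Change of each gene tested in DKO cDC2 (activated minus resting, log2, vertical axis) against its mean log2 intensity over the 4 DKO arrays (horizontal axis). Red points are the 624 genes that rose and blue points the 848 that fell by limma, grey points the 9256 others, and the largest increases reach further from 0 than the largest decreases.

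The largest increase was that of Cxcl9, a chemokine that draws T and NK cells through the receptor CXCR3. Cxcl9 read 6.92 and 6.50 at rest and 12.22 and 12.21 after activation, a rise of 5.50 ± 0.32 (SE; 45.2-fold; adjusted p = 0.00131 by limma). Iigp1, an immunity-related GTPase that attacks vacuoles holding microbes, read 4.60 and 4.39 at rest and 9.91 and 9.93 after activation, a rise of 5.43 ± 0.35 (adjusted p = 0.0018). Its resting values lie below the brightness threshold. Cxcl10, a ligand of the same receptor as Cxcl9, read 8.05 and 6.17 at rest and 12.40 and 12.19 after activation (5.18 ± 0.60, adjusted p = 0.0059). The resting arrays of Cxcl10 lay well apart, and the activated ones close together. Tnfsf15, which codes for the T cell co-stimulator TL1A, read 6.55 and 6.30 and then 11.16 and 10.77 (4.54 ± 0.19, adjusted p = 0.000325). Calhm6, a member of a family of ion channel proteins, read 5.55 and 5.83 and then 10.23 and 10.10 (4.47 ± 0.31, adjusted p = 0.00181). Its resting values too lie below the brightness threshold. In each of these 5 genes all activated arrays lay above all resting arrays, which the rule that chose them requires. The same held in 21.0% of all genes tested.

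The promoters of these 5 genes were looked up in RefSeq's annotation of GRCm38.p6, as the 250 bases before the gene start. Iigp1 had no entry in the table used, and the Tnfsf15 window held none of the motifs searched. The others are shown because they belong to the genes of largest change and because motifs of the factors that IFN-gamma and LPS act through occur in them. Each is printed 5′ to 3′ in the direction of the gene, which lies on the minus strand, with motif matches in capitals. Cxcl9 (chr5:92328080-92328329) holds an ISRE-like match from -175 to -167 and an NF-kappaB-like match from -154 to -146, counted from the gene start. Cxcl10 (chr5:92348890-92349139) holds an ISRE-like match from -213 to -205 and an AP-1 match from -74 to -68. Calhm6 (chr10:34127973-34128222) holds an ISRE-like match from -64 to -56.
Cxcl9: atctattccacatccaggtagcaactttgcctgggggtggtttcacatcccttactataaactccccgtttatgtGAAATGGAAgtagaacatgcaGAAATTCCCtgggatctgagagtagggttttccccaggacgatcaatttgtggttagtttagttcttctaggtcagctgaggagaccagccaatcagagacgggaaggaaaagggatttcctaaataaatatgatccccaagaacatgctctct
Cxcl10: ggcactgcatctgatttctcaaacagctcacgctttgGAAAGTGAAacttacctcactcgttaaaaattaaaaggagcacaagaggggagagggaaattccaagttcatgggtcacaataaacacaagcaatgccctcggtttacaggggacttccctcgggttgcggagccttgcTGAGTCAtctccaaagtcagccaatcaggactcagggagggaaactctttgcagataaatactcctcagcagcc
Calhm6: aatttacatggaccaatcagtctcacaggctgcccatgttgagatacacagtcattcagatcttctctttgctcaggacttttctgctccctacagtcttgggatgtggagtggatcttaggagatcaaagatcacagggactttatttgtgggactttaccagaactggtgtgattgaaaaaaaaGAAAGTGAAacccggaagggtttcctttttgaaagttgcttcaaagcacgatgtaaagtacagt

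Motifs were searched on both strands: ISRE-like GAAANNGAA, GAS TTCNNNGAA, AP-1 TGANTCA, CRE TGACGTCA, NF-kappaB-like GGGNNTTTC, and a pair of BATF-IRF composites that contain the AP-1 motif. Of the 624 genes that rose, 485 had at least 1 window, and of the 848 that fell, 707. An ISRE-like match occurred in 11.4% of the windows of genes that rose, in 6.23% of those of genes that fell and in 6.07% of those of all genes tested. The share was 7.13% over all 32851 windows in the table. For NF-kappaB-like matches the shares were 5.16%, 3.34% and 3.57%, for AP-1 5.92%, 4.0% and 4.64%, for GAS 6.83%, 5.23% and 5.84%, and for CRE 1.67%, 3.23% and 2.56%, in the same order. Over all windows in the table they were 3.72%, 6.75%, 7.02% and 1.55%. In the 98 windows of genes that rose at least 4-fold, a limit chosen after the values were seen, they were 22.4% for ISRE-like, 15.3% for GAS, 15.3% for AP-1 and 8.16% for NF-kappaB-like matches. The composite with GAAA directly before the AP-1 motif occurred in 3 windows of genes that rose (0.455%), in 9 of all genes tested (0.0826%) and in 33 of all windows (0.10%). That with TTTC and 4 further bases before it occurred in 1 (0.152%), 6 (0.0551%) and 32 (0.0974%). A match is a description of the letters and was not tested as a binding site.

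The other genes among the 15 largest increases were the guanylate-binding proteins Gbp7 (4.44), Gbp4 (3.92) and Gbp5 (3.77), the chemokine Cxcl11 (4.35), the cytokine Il6 (4.33), Trim30d (4.17), Phxr4 (4.16), the orphan receptor gene Gprc5c (3.98), Irf8 (3.92) and the nucleotidase gene Nt5c1a (3.78), with adjusted p from 0.00024 to 0.0151 by limma. Il6, the cytokine that directs T and B cell responses and the acute phase, read 5.47 and 5.04 at rest and 9.65 and 9.52 after activation (4.33 ± 0.16). Gprc5c read 5.80 and 5.54 and then 9.66 and 9.64 (3.98 ± 0.13), the smallest spread of these changes together with Il6. The resting values of Il6 and Gprc5c lie below the brightness threshold. Cxcl9, Iigp1, Tnfsf15, Calhm6, Cxcl11, Il6, Gprc5c, Irf8 and Nt5c1a passed in each fit that left out 1 DKO array. The other 6 of the 15 lost the threshold in at least 1 of them.

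**Figure D2:**
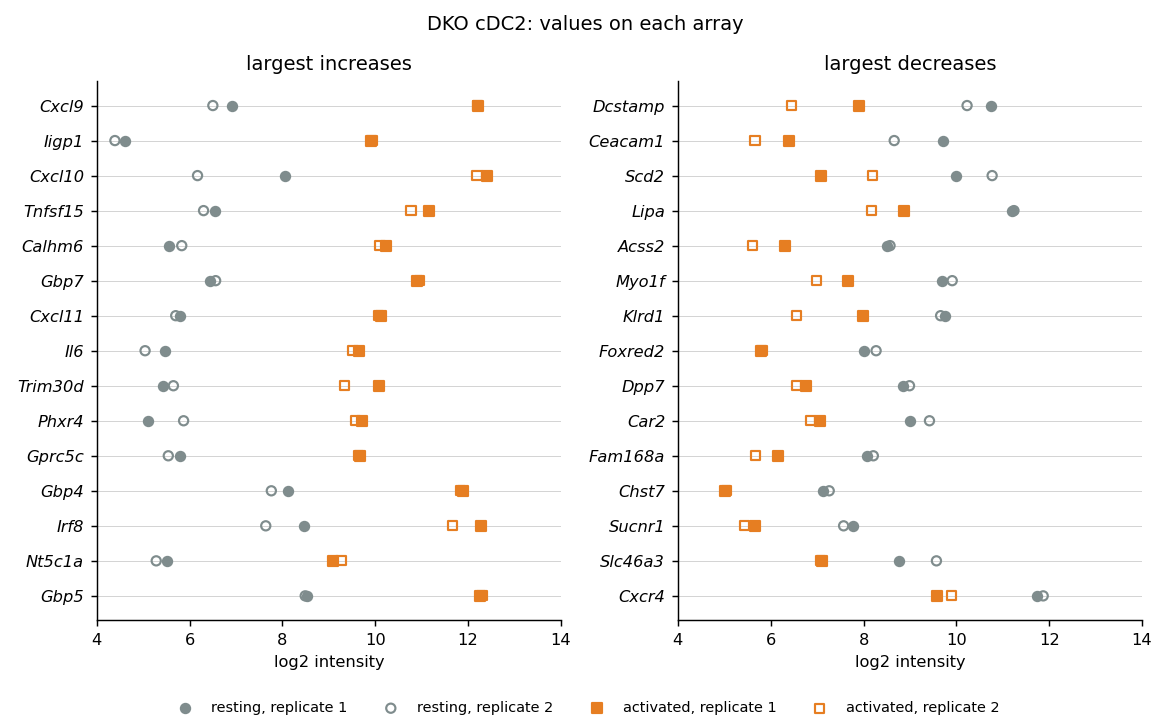
Log2 intensity (horizontal axes) of the 15 largest increases (left) and the 15 largest decreases (right) in DKO cDC2 on each array, 1 symbol per array: circles for resting, squares for activated, filled for replicate 1 and open for replicate 2. Activated and resting arrays do not overlap in any of the 30 genes, as the rule that chose them requires.

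The largest decrease was that of Dcstamp, which codes for a membrane protein needed for the fusion of osteoclasts. It read 10.74 and 10.23 at rest and 7.91 and 6.45 after activation (-3.30 ± 0.67, adjusted p = 0.0265 by limma). Ceacam1, an adhesion receptor that inhibits signalling in immune cells, read 9.71 and 8.66 and then 6.40 and 5.66 (-3.16 ± 0.49, adjusted p = 0.0132). Both genes were lower on the replicate 2 array of either state. Scd2, a fatty acid desaturase, read 9.99 and 10.77 and then 7.09 and 8.19 (-2.74 ± 0.46, adjusted p = 0.0153), here with replicate 2 higher in either state. Lipa, the lysosomal acid lipase, read 11.20 and 11.24 and then 8.87 and 8.17 (-2.70 ± 0.37, adjusted p = 0.00911). Cxcr4, the CXCL12 receptor that holds cells in tissues, read 11.73 and 11.87 and then 9.59 and 9.89 (-2.06 ± 0.22, adjusted p = 0.00481). The others of the 15 were Acss2 (-2.58), an enzyme that makes acetyl-CoA, the class I myosin gene Myo1f (-2.47), Klrd1 (-2.43), which codes for the NK receptor CD94, Foxred2 (-2.35), the peptidase gene Dpp7 (-2.27), the carbonic anhydrase gene Car2 (-2.25), Fam168a (-2.23), the sulfotransferase gene Chst7 (-2.17), the succinate receptor gene Sucnr1 (-2.11) and the lysosomal transporter gene Slc46a3 (-2.07). Acss2, Foxred2, Dpp7, Fam168a, Sucnr1 and Cxcr4 passed in each fit that left out 1 DKO array, and the other 9 did not.

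Of 21 receptors and signal transducers of interferons and LPS tested, 1 rose and 2 fell, with a median of 0.02. These shares are near those over all genes tested (5.82% higher and 7.90% lower). The list counts below stand beside the same shares, or 13.0% and 25.0% with the block. Myd88, the adaptor of most Toll-like receptors, read 9.79 and 9.55 at rest and 10.97 and 11.27 after activation (1.45 ± 0.24, adjusted p = 0.0149 by limma). Ifngr1, the ligand-binding chain of the IFN-gamma receptor, read 8.30 and 8.28 and then 6.92 and 7.23 (-1.22 ± 0.15, adjusted p = 0.00788). Ticam1, which codes for the adaptor TRIF, fell by 0.68 ± 0.11 (adjusted p = 0.0146). Tlr4 was not above the threshold in any group and read 4.12 to 4.38 on the DKO arrays. With the block 5 genes of this list were higher and 6 lower, and without 1 DKO array 0 were higher and 0 or 1 lower. Of 15 pattern receptors tested, Nod1, a sensor of bacterial cell wall fragments, was the 1 that passed (2.03 ± 0.32, adjusted p = 0.0136), a share near that over all genes tested. With the block 4 were higher and 2 lower, and without 1 DKO array 0, 1, 0 and 0 were higher.

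Targets of IFN-gamma were the list of largest median change. Of 17 IFN-gamma-responsive GTPases and regulators tested, 14 rose and 0 fell, and the median was 2.14, against -0.09 over all genes tested. Irf8, an IRF that pairs with BATF factors and directs dendritic cell fate, read 8.46 and 7.64 at rest and 12.27 and 11.67 after activation (3.92 ± 0.33, adjusted p = 0.00314 by limma). Gbp7, Gbp4 and Iigp1 were the other members of largest change. Ciita (0.29), the master regulator of MHC class II, Nos2 (1.39) and Gbp9 (1.91) did not pass, and with the block 16 of the 17 were higher. Without 1 DKO array 8, 4, 5 and 9 of the 17 passed, and the median lay between 2.12 and 2.16.

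Interferon-stimulated antiviral genes, which respond mainly to type I interferon, were higher in DKO activated cells with a median of 1.67 over 32 members, of which 15 rose, 0 fell and 17 did not pass. With the block all 32 passed. Cmpk2, a mitochondrial nucleotide kinase, read 8.37 and 7.18 at rest and 12.15 and 10.89 after activation (3.75 ± 0.57, adjusted p = 0.0119 by limma). Ifit2, an RNA-binding antiviral protein, read 8.88 and 8.25 and then 11.98 and 11.51 (3.18 ± 0.36, adjusted p = 0.00568). Mx2 read 7.05 and 6.74 and then 10.07 and 9.45 (2.86 ± 0.36), and Samd9l 8.28 and 8.19 and then 11.25 and 10.85 (2.82 ± 0.38). These 4 genes are the list's largest changes past the threshold, and their activated arrays lay above the resting ones, as in 21.0% of all genes tested. In pairs the median of the list was 1.99 in replicate 1 and 1.38 in replicate 2. Without 1 DKO array 8, 3, 2 and 10 of the 32 passed, the fewest without DKO activated replicate 1. Ifnb1, which codes for interferon-beta, did not exceed the threshold in any group mean and read 4.15 and 4.55 at rest and 6.37 and 4.71 after activation.

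Of 19 inflammatory cytokine genes tested, 10 rose and 1 fell, with a median of 1.53. Besides Tnfsf15 and Il6, Tnf read 9.01 and 7.56 at rest and 11.78 and 10.84 after activation (3.02 ± 0.64, adjusted p = 0.0306 by limma). Il12b, the shared subunit of IL-12 and IL-23, read 7.82 and 7.68 and then 10.66 and 10.85 (3.01 ± 0.29, adjusted p = 0.00429). Il12a, the other subunit of IL-12, was not above the threshold in any group. Ebi3 (2.20) and Il27 (1.18), whose products form IL-27, also rose. Ltb, which codes for lymphotoxin-beta, read 8.66 and 7.86 and then 7.02 and 6.51 (-1.49 ± 0.30, adjusted p = 0.0255). Without 1 DKO array 7, 5, 4 and 6 members passed as higher and 0, 1, 0 and 0 as lower, and with the block 16 were higher and 2 lower.

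Of 16 chemokine genes tested, 4 rose and 0 fell, and the median was 0.41. The increases were the CXCR3 ligands Cxcl9, Cxcl10 and Cxcl11 and the T cell chemokine Ccl5, which read 10.99 and 11.06 at rest and 11.95 and 12.05 after activation (0.97 ± 0.09, adjusted p = 0.00429 by limma). The neutrophil chemokines Cxcl1 (0.47) and Cxcl2 (0.70) and the CCR4 ligands Ccl17 (-0.11) and Ccl22 (0.34) did not pass, and with the block 7 of the 16 were higher. Among 14 chemokine and migration receptors, Cxcr4 was the 1 that fell, and Icam1, an adhesion ligand of T cells, the 1 that rose (0.73 ± 0.18, adjusted p = 0.0454). Either share is near that over all genes tested. Cxcr4 passed without any 1 DKO array, and Icam1 in none of those fits. With the block 3 of the 14 were higher and 5 lower. Ccr7, which guides mature dendritic cells to lymph nodes, stood at 0.42 and did not pass.

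Co-stimulation and maturation genes included 9 that rose of 22, with 0 lower and a median of 0.42. Cd40, the receptor through which T helper cells act on dendritic cells, read 10.44 and 10.84 at rest and 11.97 and 12.39 after activation (1.54 ± 0.37, adjusted p = 0.0436 by limma). Cd70, the CD27 ligand, read 8.57 and 7.68 and then 9.95 and 10.30 (2.0 ± 0.33, adjusted p = 0.0155). Tnfaip2 (2.42) and Tnfsf9 (2.11), the latter coding for 4-1BB ligand, rose further, and Cd80 (1.18), Cd86 (0.90) and Cd274 (1.05), of the B7 family, rose as well. With the block 14 of the 22 were higher, and without 1 DKO array 6, 5, 3 and 5 were.

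Among factors that limit the response, Nfkbiz, an atypical inhibitor and co-activator of NF-kappaB, read 7.95 and 7.51 at rest and 10.33 and 10.29 after activation (2.57 ± 0.17, adjusted p = 0.0018 by limma). Nfkbiz and Tnfaip3 (0.94), the ubiquitin-editing enzyme A20, both rose. They were 2 of 19 NF-kappaB genes, and 0 fell, beside 5.82% and 7.90% of all genes tested. With the block 8 were higher and 1 lower, and without 1 DKO array 3, 1, 1 and 2 were higher. Of 19 signal feedback inhibitors, 6 rose and 2 fell. Socs3, an inhibitor of JAK signalling, rose by 2.37 ± 0.25 (adjusted p = 0.00481), its relative Cish by 2.21 ± 0.17, and Usp18, which shuts off the type I interferon receptor, by 1.82 ± 0.29. Zfp36l1, which destabilises AU-rich transcripts, fell by 1.86 ± 0.20 (adjusted p = 0.00481). Without 1 DKO array 4, 2, 2 and 5 of the 19 were higher.

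The AP-1 family with its IRF partners had 5 of 20 members higher and 1 lower, and 4, 3, 3 and 3 higher and 0 lower without 1 DKO array. With the block 9 were higher and 3 lower. Batf2, the family member that was not deleted, read 6.19 and 6.53 at rest and 7.86 and 7.98 after activation (1.56 ± 0.16, adjusted p = 0.00458 by limma). Irf4, the BATF partner typical of cDC2, read 10.03 and 9.37 and then 10.77 and 11.02 (1.19 ± 0.23, adjusted p = 0.0227). The small MAF gene Mafk (1.50) and Jdp2 (0.64), which codes for an AP-1 repressor, rose as well, and Fosl2 fell by 1.07. Batf (-0.04 ± 0.54) and Batf3 (-0.03 ± 0.45) did not pass. Of 21 immediate early genes, Klf6 was the 1 that rose (1.18 ± 0.15, adjusted p = 0.00841), a share near that over all genes tested. With the block 10 of them were higher and 1 lower, and without either DKO resting replicate 2 or DKO activated replicate 1, 0 were higher.

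Among 22 transcription factors of dendritic cell lineages, Tbx21, which codes for T-bet, read 7.24 and 6.33 at rest and 10.56 and 10.37 after activation (3.68 ± 0.35, adjusted p = 0.00429 by limma). Tcf4, the factor that specifies plasmacytoid dendritic cells, read 8.06 and 8.10 and then 10.24 and 10.32 (2.20 ± 0.16, adjusted p = 0.00219). Mycl rose by 1.80 ± 0.16 and Irf2 by 0.84. Spi1, which codes for the myeloid factor PU.1, fell by 0.93 ± 0.15 (adjusted p = 0.0136). The other 17 did not pass. With the block 6 were higher and 3 lower, and without 1 DKO array 3 were higher in each fit and 0, 0, 0 and 1 lower.

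MHC class I genes had 2 members higher of 17 and 0 lower, the class I regulator Nlrc5 (1.33 ± 0.31) and the peptidase gene Erap1 (0.79 ± 0.19), at adjusted p = 0.0412 and 0.0443 by limma, and 9 higher and 1 lower with the block. Without any 1 DKO array 0 of the 17 passed. Of the class II list, Ctsd, cathepsin D, fell by 1.33 ± 0.18, Ifi30, a thiol reductase of the same compartment, by 0.93 ± 0.17, and Ctsb, cathepsin B, by 0.38 ± 0.09. H2-DMa, a chain of the peptide-loading protein, rose by 0.42 ± 0.10 (adjusted p = 0.0482). The chains H2-Aa (-0.10), H2-Ab1 (-0.05) and H2-Eb1 (-0.19) did not pass. This made 1 higher and 3 lower of 14 tested, and without 1 DKO array 0 were higher and 1, 0, 0 and 2 lower.

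Of 17 inflammasome and cell death genes, 5 rose and 0 fell, with a median of 0.79. Mlkl, the pore-forming protein of necroptosis, read 5.68 and 6.22 at rest and 8.39 and 8.60 after activation (2.55 ± 0.50, adjusted p = 0.0249 by limma). Casp4, the sensor of cytosolic LPS, read 7.79 and 7.49 and then 10.19 and 10.04 (2.48 ± 0.23, adjusted p = 0.00426). Bcl2l11 (1.84), which codes for the killer protein BIM, and Bcl2l1 (1.05), which codes for the survival protein BCL-XL, both rose. With the block 12 were higher, and without 1 DKO array 2, 1, 1 and 2 were. Of 11 genes of nitric oxide, oxidase and tryptophan metabolism, 3 rose and 1 fell. Cybb, the catalytic subunit of the phagocyte oxidase, rose by 1.80 ± 0.24 and Ncf4, a cytosolic subunit of it, fell by 1.02 ± 0.10, while Acod1 (1.79) and Ido1 (1.63), which make itaconate and start the breakdown of tryptophan, rose. Without any 1 DKO array 1 was higher and 1 lower, and with the block 7 and 3.

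Of 20 cholesterol synthesis genes tested, 8 fell and 0 rose, with a median of -0.50. Dhcr7, the last enzyme of a branch of the pathway, read 7.55 and 7.64 at rest and 5.73 and 6.24 after activation (-1.61 ± 0.20, adjusted p = 0.00788 by limma). Mvd, which decarboxylates mevalonate diphosphate, read 9.29 and 9.39 and then 7.81 and 7.79 (-1.54 ± 0.20, adjusted p = 0.008). Lss (-1.13) and Cyp51 (-0.95) also fell. With the block 13 were lower, and without 1 DKO array 2, 0, 1 and 2 were. In the LXR list, Scd2 and Mylip, a ligase that degrades lipoprotein receptors (-1.17 ± 0.19), fell, and Srebf1 (0.86) and Lpcat3 (0.59) rose, of 9 tested. Without 1 DKO array 1, 0, 1 and 1 were higher and 2, 0, 0 and 2 lower.

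In glycolysis, Hk2, the inducible hexokinase, read 6.20 and 6.01 at rest and 8.28 and 8.51 after activation (2.29 ± 0.22, adjusted p = 0.00429 by limma), and Hk3 rose by 1.15 ± 0.21. The lactate exporter gene Slc16a3 fell by 0.84 ± 0.10 and Pkm by 0.43 ± 0.10, so 2 members rose and 2 fell of 15. With the block 3 were higher and 7 lower, and without 1 DKO array 2, 1, 1 and 1 were higher and 1 lower in each fit. Cell cycle genes had 1 higher and 6 lower of 29, with a median of -0.47. Ccna2, cyclin A, read 7.07 and 7.35 and then 5.95 and 6.01 (-1.23 ± 0.17, adjusted p = 0.00963), and Plk1, a mitotic kinase, read 6.62 and 7.18 and then 5.79 and 5.78 (-1.12 ± 0.25). Cdkn1b, an inhibitor of cell cycle kinases, rose by 0.87 ± 0.12. With the block 18 were lower, and without 1 DKO array 4, 0, 0 and 1 were. Of 21 cytoskeleton and adhesion genes, 2 rose and 1 fell, shares near those over all genes tested. Itga4 (0.77) and Icam1 rose, and Coro1a (-0.74), a regulator of actin, fell. Without any 1 DKO array 0 of these passed, and with the block 3 were higher and 6 lower.

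**Figure D3:**
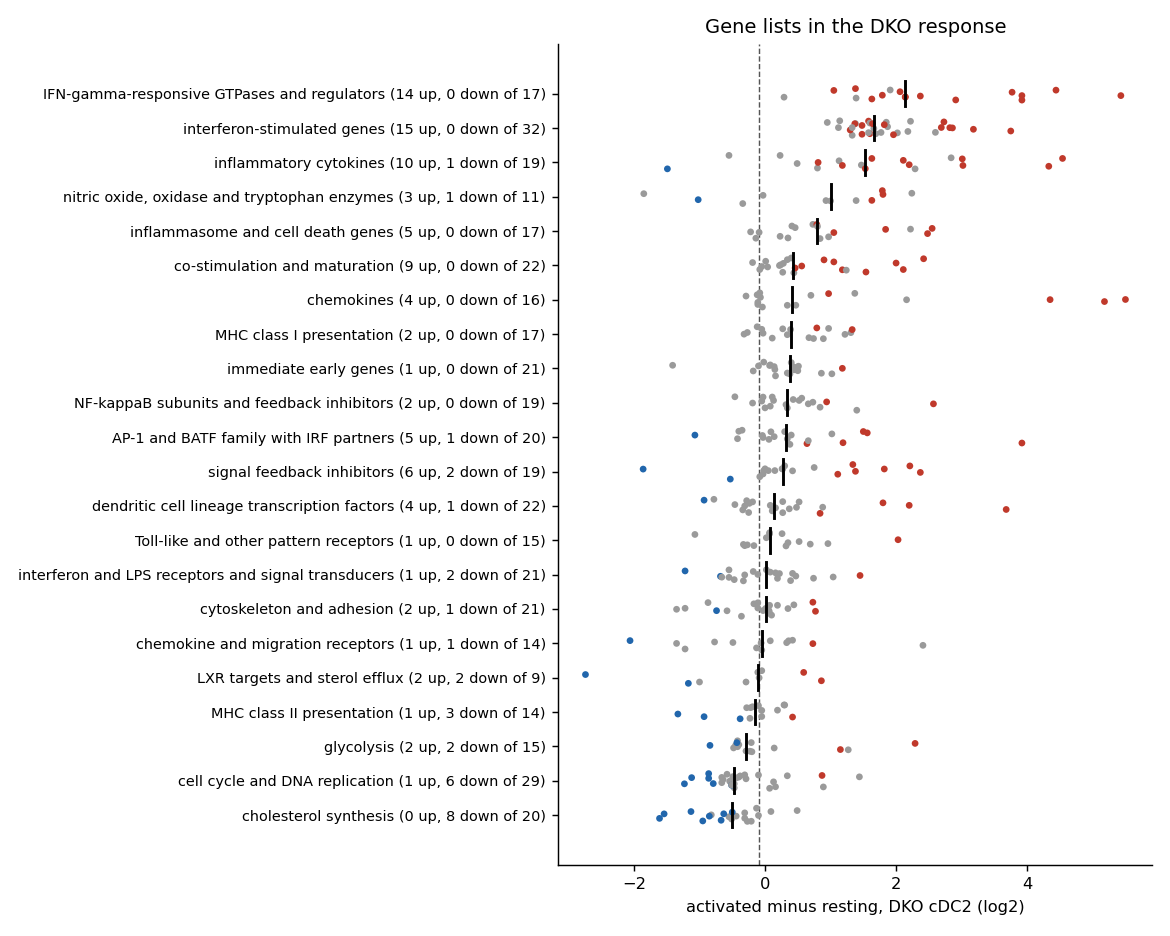
Change in DKO cDC2 (activated minus resting, log2, horizontal axis) of every tested member of 22 gene lists, 1 row per list. Red points rose and blue points fell by limma, grey points did not pass, black bars are list medians and the dashed line is the median of -0.09 over all genes tested. IFN-gamma-responsive genes have the highest median (2.14) and cholesterol synthesis genes the lowest (-0.50).

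Markers of the cell types that a sort could hold were read on the same arrays. Of 12 cDC2 markers tested, 2 rose (Tbx21 and Irf4) and 5 fell, among them Esam (7.39 and 7.18, then 6.27 and 6.28), Ltb and Cd300a (-1.27). Of 15 cDC1 markers 1 rose, Irf8, with a list median of -0.02. The 15 include Xcr1 and Clec9a, which exceeded the brightness threshold on the cDC1 array but not on the DKO arrays. The summed linear intensity of the cDC1 markers was 3663 and 3855 at rest and 10116 and 9656 after activation. Irf8 made up 352, 199, 4939 and 3259 of it. Without Irf8 the sum was still higher after activation, at 3310 and 3656 and then 5177 and 6397. The summed intensity of the cDC2 markers was 4323 and 3706, then 5343 and 5430, a sum that includes Tbx21 and Irf4, which rose. The mean log2 intensity of the cDC2 markers was 7.24 and 6.95 at rest and 6.96 and 6.88 after activation. Of 7 plasmacytoid markers, Lag3 (2.41) and Tcf4 rose and Ccr9 (-1.95) and Spib (-1.33) fell, with the defining marker Siglech below the threshold in all groups. The summed intensity of the plasmacytoid list was 1821 and 3711 at rest and 4389 and 6332 after activation. That sum includes Lag3, Tcf4 and Bst2, the last also a member of the interferon-stimulated list. The mean log2 intensity of the list was 7.11 and 7.15 at rest and 7.45 and 7.43 after activation. In the T cell list, Il7r (-1.01) and Lat (-0.92) fell and Thy1 (0.60) rose of 5 tested, with a sum of 2211 and 2715 at rest and 1249 and 1594 after activation, and Cd3d and Cd3g below the threshold. The NK list had Klri1 lower (-1.72) of 3 tested, with Ncr1 below the threshold and sums of 624 to 628 and 511 to 581. Spic fell (-1.21) of 10 macrophage markers (sums 2242 to 2518, then 1669 to 1786). Of 9 monocyte markers Fcgr4 rose (1.93) and Csf1r (-1.18), Treml4 (-1.01) and Spn (-0.69) fell (sums 2697 to 2810, then 2584 to 3080). In the B cell list 0 of 3 tested passed, with Ighm at 0.25 and Blk at -0.61 (adjusted p = 0.457, 0.0482 with the block), Cd79a and Ms4a1 below the threshold, and sums of 664 to 1118 and 641 to 753. In the neutrophil list 0 of 6 passed, with Lcn2 at 0.51 and Camp at -0.31 (adjusted p = 0.122, 0.0441 with the block), Ly6g below the threshold, and sums of 1104 to 1240 and 1086 to 1490. In the erythroid list Car2 was lower of 3 tested, with Alas2 below the threshold and sums of 701 to 868 and 301 to 307. Without 1 DKO array the marker calls were fewer: of cDC2 markers 2, 2, 0 and 2 were lower, of plasmacytoid markers 2, 1, 1 and 2 higher and 1, 0, 0 and 1 lower, and of T cell markers 0 higher and 0, 0, 0 and 1 lower. Of monocyte markers 1, 1, 0 and 1 were higher and 1, 0, 0 and 0 lower, of NK markers 1, 0, 1 and 1 lower, of macrophage markers 0, 0, 0 and 1 and of erythroid markers 1, 0, 0 and 0, while 0, 0, 1 and 0 neutrophil markers were higher. The part of other cell types in the changes of the gene groups above was not tested.

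Wild-type cDC2 responded with 426 genes higher (3.97%) and 705 lower (6.57%) by limma, and with 1222 (11.4%) and 2569 (23.9%) with the block. Without WT resting replicate 1, WT resting replicate 2, WT activated replicate 1 or WT activated replicate 2 the WT counts (higher and lower) were 94 and 56, 318 and 232, 173 and 140, and 47 and 16. The changes of the genotypes correlated at r = 0.941 over genes, which are not independent replicates. Of the genes that rose in DKO cells, 378 also rose in WT cells, which is 60.6% of the DKO list and 88.7% of the WT list. Of those that fell, 519 were shared, 61.2% of the DKO list and 73.6% of the WT list, and 0 genes passed in opposite directions. Past the threshold in DKO but not in WT cells were 246 increases and 329 decreases, and in WT but not in DKO cells 48 increases and 186 decreases. In WT cells 2136 genes were higher without overlap of the arrays (19.9%) and 3906 lower (36.4%). Most of the genes past the threshold in 1 genotype alone were on the same side in the other genotype: 245 of 246, 329 of 329, 46 of 48 and 186 of 186. In the 246 the median change was 0.94 in DKO and 0.64 in WT cells, and 196 of them passed in WT cells with the block. In the 329 it was -0.65 and -0.44, and 250 passed in WT cells with the block. In the 48 it was 0.43 and 0.66 and in the 186 it was -0.40 and -0.58, and 36 and 148 of these passed in DKO cells with the block. These sets were chosen by the changes they are described with, so their medians are no test of a difference.

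**Figure D4:**
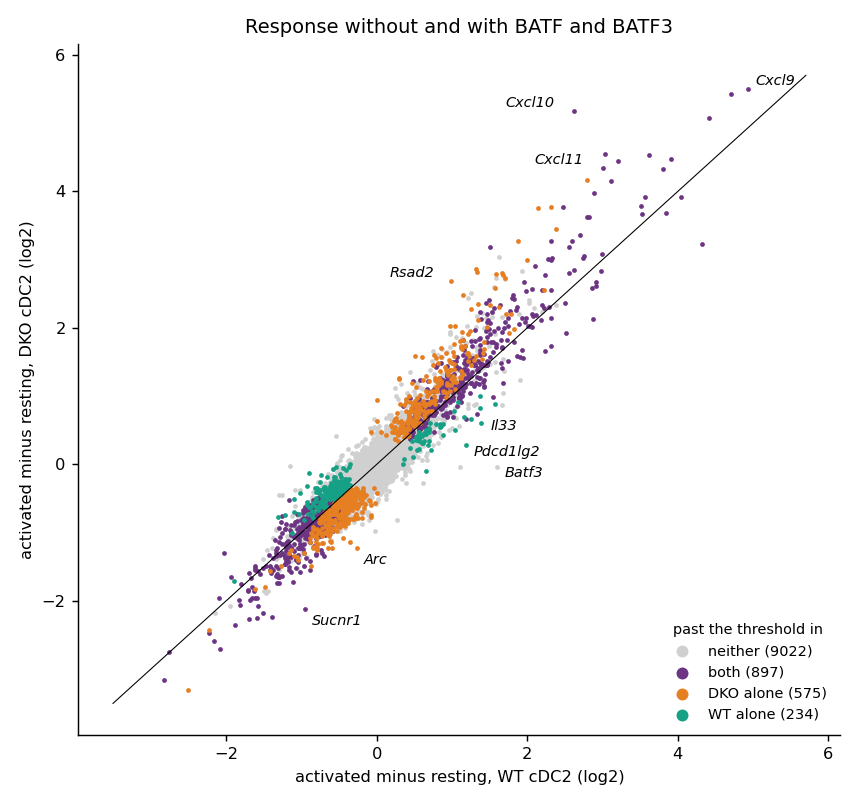
Activated minus resting (log2) in DKO cDC2 (vertical axis) against WT cDC2 (horizontal axis), 1 point per gene tested, with the line of equal change. Purple genes passed in both genotypes (897), orange in DKO alone (575), green in WT alone (234) and grey in neither (9022), by limma. The points follow the line (r = 0.941), with Cxcl10 and Rsad2 above it and Pdcd1lg2, Batf3 and Sucnr1 below it.

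The difference between the responses was tested directly, as the interaction of genotype and activation. By limma 0 genes were higher and 0 lower (0% of 10728), with 121 at an unadjusted p under 0.05 and a smallest adjusted p of 1. With the block 0 passed, with 368 at an unadjusted p under 0.05 and a smallest adjusted p of 0.827. The median standard error of the difference was 0.20, or 0.14 with the block. Of the genes past the threshold in 1 genotype alone, 17 of the 246, 18 of the 329, 8 of the 48 and 11 of the 186 had an unadjusted p of the difference under 0.05. Over all genes tested it was 121 of 10728. The sets were chosen by calls on the same arrays, so these counts are no test of a response gained or lost. The genes below are named by the size of the unadjusted p of the difference, as values, and none of their differences is past the threshold.

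Toward a larger fall in DKO cells the smallest p was that of Sucnr1, the receptor for the metabolite succinate. Sucnr1 read 7.77 and 7.57 at rest and 5.67 and 5.44 after activation in DKO cells and 6.41, 6.15, 5.27 and 5.39 in the same order in WT cells. It fell in both genotypes, by 2.11 and by 0.95, and the difference was -1.17 ± 0.20 (unadjusted p = 0.000923). The genotypes lay apart at rest, and all activated values lie below the brightness threshold, so the falls may be understated and the activated levels have no order. Arc, known as an activity-regulated gene of neurons, read 7.56 and 7.44 and then 6.37 and 6.18 in DKO cells and 6.60, 6.79, 6.38 and 6.48 in WT cells. It fell by 1.22 in DKO cells (adjusted p = 0.00429), stood at -0.26 in WT cells (adjusted p = 0.189), and differed by -0.96 ± 0.17 (unadjusted p = 0.000988). Arc too was apart at rest, and its activated values lay close together. Rasal1, a RAS GTPase-activating protein, stood at -1.34 and -0.70 (difference -0.64 ± 0.15), and Macrod2 at -0.27 and 0.39 (-0.66 ± 0.16).

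Toward a larger rise in DKO cells, Gprc5c stood at 3.98 in DKO and 2.89 in WT cells (difference 1.09 ± 0.19, unadjusted p = 0.000991). In WT cells it read 6.41 and 6.26 at rest and 9.11 and 9.34 after activation, so DKO arrays were lower at rest and higher after activation. Plpp2, a lipid phosphatase, read 6.24 and 6.13 and then 7.49 and 7.34 in DKO cells and 6.47, 6.47, 7.02 and 6.91 in WT cells, a difference of 0.74 ± 0.14. Cxcl11 stood at 4.35 and 3.01 (1.34 ± 0.26, unadjusted p = 0.00187). Its WT arrays read 6.96 and 7.55 at rest against 5.79 and 5.70 in DKO cells, and 10.26 and 10.26 after activation against 10.13 and 10.07. The DKO resting values of Cxcl11 and Gprc5c lie below the brightness threshold. Hacd2, a dehydratase of fatty acid elongation, stood at 0.89 and 0.31 (0.58 ± 0.13). Cd36, a scavenger receptor for lipids, differed in the same direction through a smaller fall in DKO than in WT cells, not a rise. It read 5.35 and 5.22 at rest and 4.38 and 4.35 after activation in WT cells. On all DKO arrays it read 4.10 to 4.48. The Cd36 values of both genotypes lie below the brightness threshold.

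**Figure D5:**
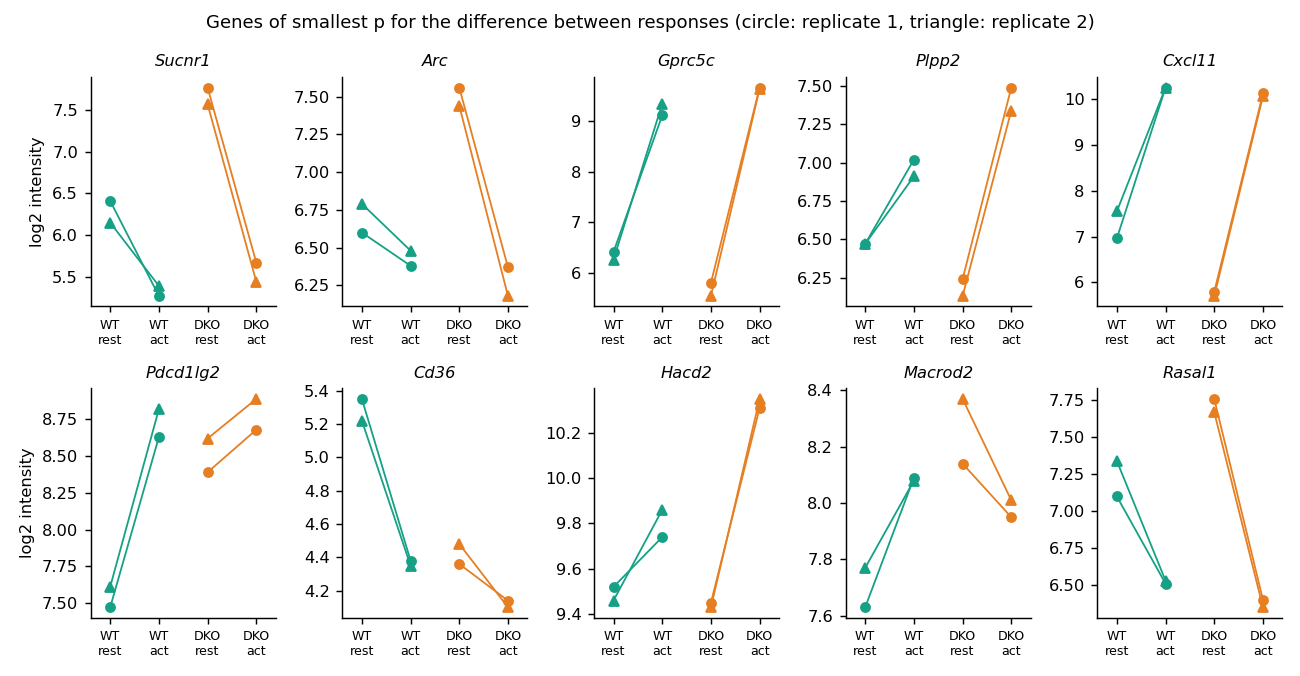
Log2 intensity (vertical axes, each panel with its own range) of the 10 genes of smallest p for the difference between responses, in resting (rest) and activated (act) cells of WT (green) and DKO (orange) cDC2. Circles are replicate 1 and triangles replicate 2, joined within a replicate number. In Sucnr1, Arc and Rasal1 the genotypes are apart at rest and close after activation, where the Sucnr1 values lie below the brightness threshold.

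Among increases past the threshold in DKO cells alone, those of smallest p for the difference were Hacd2, Elovl7, a fatty acid elongase (0.48 in DKO and -0.08 in WT cells), Rsad2, which codes for the antiviral protein viperin (2.69 and 0.99), Ifi202b (2.49 and 1.15), Plxdc1 (0.95 and 0.01) and Mx2 (2.86 and 1.32). The unadjusted p of the difference lay between 0.00342 and 0.0207. With the block, Hacd2 (adjusted p = 0.0298), Rsad2 (0.0366), Ifi202b (0.0253) and Mx2 (0.028) passed in WT cells by limma too, and Elovl7 and Plxdc1 did not. Plxdc1 read 6.17 and 6.41 and then 6.92 and 7.55 in DKO cells, and 6.56, 6.72, 6.62 and 6.69 in WT cells, where the resting and activated arrays overlap.

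Of the 246 increases, which are 2.29% of all genes tested, 14 were interferon-stimulated genes, among them Ifit1, Rsad2 and Samd9l. In WT cells 1 of the 32 members of that list passed, with a median of 0.96 (1.46 in the pair of replicate 1 and 0.46 in that of replicate 2). The WT values moved with each array left out, most with the resting ones. The summed linear intensity of the list was 35894 on WT resting replicate 1 and 77556 on WT resting replicate 2, against 24377 and 29076 on the DKO resting arrays and 81472 to 106287 on the activated arrays of either genotype. Without WT resting replicate 1, WT resting replicate 2, WT activated replicate 1 or WT activated replicate 2, 0, 14, 0 and 0 of the 32 passed in WT cells, and the medians were 0.30, 1.65, 1.19 and 0.76, beside 1.67 in DKO cells with all arrays. What sets the WT resting arrays apart from each other was not tested. Rsad2 read 11.81 and 12.18 in resting WT cells and 10.46 and 9.54 in resting DKO cells, with 12.36 to 13.04 on all activated arrays. Its difference between responses was 1.70, and 1.51 without WT resting replicate 2. For Mx2 the difference was 1.55 and then 1.03, for Ifi202b 1.34 and then 0.92, and for Cxcl11 1.34 and then 1.05. Cxcl10 read 9.57 and 10.47 in resting and 12.73 and 12.55 in activated WT cells, a change of 2.62 against 5.18 in DKO cells (difference 2.57, unadjusted p = 0.0212).

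Among decreases past the threshold in DKO cells alone, those of smallest p were Arc, Setmar (-0.56 in DKO and -0.02 in WT cells), the potassium channel gene Kcnk13 (-1.14 and -0.35), Bola1 (-0.42 and -0.00), Nlrp10 (-0.74 and -0.08) and Rnf150 (-0.59 and -0.08). The unadjusted p of the difference lay between 0.000988 and 0.0204. None of the 6 passed in WT cells with the block. Kcnk13 read 6.90 and 7.07 and then 6.03 and 5.66 in DKO cells and 6.41, 6.38, 6.11 and 5.98 in WT cells, so its resting arrays were apart between genotypes and its activated arrays overlapped. Of the 29 cell cycle genes tested, 6 were among the 329 decreases, which are 3.07% of all genes tested, and without 1 DKO array 4, 0, 0 and 1 of the 29 were lower in DKO cells. Ccna2 read 6.34 and 6.63 and then 5.71 and 6.07 in WT cells, a change of -0.59 beside -1.23 (unadjusted p of the difference 0.0375), and it passed in WT cells with the block (adjusted p = 0.00657).

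Among increases past the threshold in WT cells and not in DKO cells, the smallest p was that of Pdcd1lg2, which codes for PD-L2, an inhibitory ligand of T cells. Pdcd1lg2 read 7.47 and 7.61 at rest and 8.63 and 8.82 after activation in WT cells, a rise of 1.19 (adjusted p = 0.00927 by limma). In DKO cells it read 8.39 and 8.62 and then 8.68 and 8.89 (0.28 ± 0.14, adjusted p = 0.222, 0.0318 with the block), and the difference was -0.91 ± 0.19 (unadjusted p = 0.0028). The resting DKO arrays stood near the activated WT arrays, and the activated arrays overlapped between genotypes. Its promoter window held none of the motifs searched. Il33, an alarm cytokine, read 4.84 and 4.91 and then 6.36 and 6.17 in WT cells and 4.89, 4.73, 5.63 and 5.20 in DKO cells (1.39 and 0.61, difference -0.78, adjusted p in DKO cells 0.0581, 0.0113 with the block). Its DKO values all lie below the brightness threshold. Inpp1, a phosphatase of inositol phosphates, stood at 0.66 in WT and -0.10 in DKO cells, the homeobox gene Vax1 at 0.35 and -0.00, the collagenase gene Mmp13 at 0.72 and 0.21, and Higd1a at 0.69 and 0.34. Higd1a passed in DKO cells with the block (adjusted p = 0.0231). Batf3 itself stood at 1.60 in WT cells (adjusted p = 0.0724, 0.0111 with the block) and at -0.03 in DKO cells, a difference of -1.63 in a gene that is itself deleted.

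Among decreases past the threshold in WT cells and not in DKO cells were Cd36 (-0.92 in WT and -0.31 in DKO cells), Rai14 (-0.90 and -0.12), the phospholipase gene Plce1 (-0.54 and -0.04), Tmem86a (-0.74 and -0.16), Tfb1m (-0.44 and -0.05) and the deubiquitinase gene Mindy2 (-1.02 and -0.42). The unadjusted p of the difference lay between 0.00329 and 0.0244. Cd36 (adjusted p = 0.0362) and Mindy2 (0.0475) passed in DKO cells with the block by limma, and the other 4 did not. The Cd36 values lie below the brightness threshold on all cDC2 arrays. Rai14 read 7.54 and 7.71 and then 6.62 and 6.84 in WT cells and 7.26, 7.38, 7.06 and 7.34 in DKO cells, where resting and activated arrays overlap. The BATF relative Batf2 (1.56 in DKO and 1.28 in WT cells) and the partners Irf4 (1.19 and 0.86) and Irf8 (3.92 and 4.04) had differences of 0.28 ± 0.23, 0.33 ± 0.32 and -0.12 ± 0.47 between the responses (unadjusted p = 0.256, 0.34 and 0.807).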

How the data were processed

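Expression was measured on 9 Affymetrix gene arrays (28853 transcript clusters). Per the submitters' processing notes, the authors used Affymetrix Expression Console and RMA, and the deposited values are linear intensities; versions are not given in the sources used here. Log2 of these intensities was taken, with no further normalization. Clusters with 1 gene symbol (21789; 1621 had several and 5443 none) were kept, and of each gene the cluster of highest mean was used. The 10728 genes whose mean exceeded 5.94 log2 (61.3 linear, the median brightness over all arrays and genes) in at least 1 group were tested.

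A model with 5 group means over all 9 arrays (4 residual degrees of freedom) was fitted with limma 3.58.1 in R 4.3.3, with Benjamini-Hochberg adjustment over all genes tested. Contrasts were activated minus resting in DKO and in WT cDC2, and their difference. The main fit did not use the replicate number, which served as a block in an alternative fit. Deviations of replicate 1 from its group mean correlated at r = 0.454 to 0.695 over genes in all 6 pairs of groups. The numbers, taken from the labels, were therefore treated as pairing in that alternative.

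The rule for named genes took the deleted genes with Batf2, Irf4 and Irf8, the 15 increases and 15 decreases of greatest size past the threshold without overlap of arrays, up to 4 members of each list, the genes of smallest p for the difference (5 in each direction) and for responses past the threshold in 1 genotype alone (6 in each set). Other genes with values were named as list members or after their values were seen. Members and lists were chosen with earlier results of these data known. Promoter windows and motifs came from RefSeq (GRCm38.p6). The computation was tested on simulated data. The number of arrays limits the precision. Other alternatives were the low-intensity filter, quantile normalization and centring of arrays, the rule for clusters, an intensity trend, DKO or WT arrays alone, other thresholds and leaving out each array.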

Additional observations from a re-analysis of the deposited data

Results flagged for a closer look

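Signal also appeared in transcript clusters that the comparisons do not use, those with several gene symbols or none. Of 2773 such clusters tested in the DKO response by limma, 89 were higher and 70 were lower, and 0 passed in the difference between the responses. Either share in the DKO response is below that over all genes tested (5.82% higher and 7.90% lower). Of the 824 with several symbols, 37 were higher and 35 lower. The largest change was 5.18, in a cluster with no symbol.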

How the results depend on the processing

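Limits: 2 arrays per group leave few degrees of freedom, and 0 called differences between genotypes do not show equal responses. Signal near background understates changes of dim genes. Counts in the DKO response moved from 624 higher and 848 lower to 1393 and 2687 with the replicate block, 203 and 139 at an adjusted p under 0.01, 367 and 194 at 2-fold or more, and 132 to 289 and 85 to 328 without 1 DKO array. With the DKO arrays alone 443 were higher and 314 lower. WT counts moved from 426 and 705 to 1222 and 2569 with the replicate block, 5 and 0 with the WT arrays alone, and 47 to 318 and 16 to 232 without 1 WT array. The difference had 0 calls in every setting, with 51 to 403 genes at an unadjusted p under 0.05. With the block and without WT resting replicate 2, an alternative chosen after seeing the data, it had 0 and 390. The block took no call of a named gene away, and besides the genes named with it above added Dcstamp and Klrd1 among others in WT cells. Of the 1472 DKO calls 1167 were kept without the filter, 1219 after quantile normalization, 1365 after centring, 1454 with the mean of clusters and 661 with the DKO arrays alone, with 0 changes of sign. Values that changed sign, all of changes or differences not past the threshold, were these. Leaving out 1 array each gave, in the DKO response, -0.11 to 0.02 for Batf, -0.40 to 0.34 for Batf3, -0.21 to 0.02 for Inpp1, -0.26 to 0.02 for Rai14 and -0.00 to 0.00 for Vax1. In the WT response it gave -0.07 to 0.10 for Plxdc1, -0.09 to 0.06 for Setmar, -0.01 to 0.00 for Bola1 and -0.17 to 0.02 for Rnf150, and for the Irf8 difference -0.53 to 0.29. After quantile normalization Batf3 was 0.06, Vax1 0.05 and Tfb1m 0.06 in the DKO response and Bola1 0.13 in the WT response, and after centring Batf3 was 0.00, Vax1 0.03 and Bola1 0.01. Beyond the arrays left out, the cause of these shifts was not tested.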
